A study of Mus musculus with 8 samples.

Results

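The 10 genes described here encode the 5 NF-kappaB subunits (Nfkb1, Nfkb2, Rel, Rela, Relb) and 5 proteins that restrain or tune them (Nfkbia, Nfkbid, Nfkbiz, Tnfaip3, Bcl3). They were taken by name, with earlier results of these data known, and all 10 were among the 13341 genes of the deposited table. RNA had been sequenced from T cells of MRL/lpr mice aged 14 weeks, whose lpr mutation disables Fas and who develop a lupus-like disease with nephritis. The cells had been sorted for high CD44, a surface protein of T cells that have met antigen, and came as kidney CD8+, kidney CD4+, spleen CD8+ and spleen CD4+ T cells. Every group had 2 libraries (n = 2 throughout), so 8 in all. All groups carried the same genotype, and there was no group of healthy mice or of untreated against treated mice. The labels say that sequencing was in duplicate and do not say whether the duplicates were separate animals, so p-values measure the spread between these libraries, which may be technical.

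NF-kappaB proteins bind DNA as dimers that are held in the cytoplasm until a receptor signal releases them. In the classical route, receptor signals lead to destruction of the inhibitor IkappaB alpha, made from Nfkbia, and dimers that contain RelA or c-Rel enter the nucleus. In the alternative route, the precursor made from Nfkb2 is trimmed and pairs with RelB. Several of the genes are themselves targets of NF-kappaB, Nfkbia and Tnfaip3 being the textbook examples, and so form feedback loops. In T cells the pathway is driven by the antigen receptor and by costimulatory receptors of the tumour necrosis factor receptor family.

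Promoters are shown first, because several of the genes are known targets of the factors they encode. RefSeq start sites of build GRCm38.p6 were on hand for 7 of the 10 genes, namely Nfkb2, Rel, Rela, Nfkbia, Nfkbid, Tnfaip3 and Bcl3, and the 250 bases before each start were searched on both strands. The motif searched was the degenerate NF-kappaB decamer consensus. It was present in at least 1 window of 5 genes (Nfkb2, Rel, Nfkbia, Nfkbid and Tnfaip3) and in none of the windows of Rela or Bcl3. Over all 27025 genes with such windows, 8.23% held it, and of their 32851 windows 7.25% did. Genes with several starts had more than 1 chance of a match. Nfkb2 matched in 3 of 3 windows, Nfkbid in 1 of 3 and Tnfaip3 in 1 of 2, and the other 4 genes had 1 window each. The 4 windows below run 5′ to 3′ on the strand of the gene and end at the base before the start, with matches in capitals, which run together where matches overlap. They lie at chr12:55492648-55492897 (minus strand) for Nfkbia, chr10:19015411-19015660 (minus strand) for Tnfaip3, chr19:46304487-46304736 (plus strand) for Nfkb2 and chr11:23770970-23771219 (minus strand) for Rel.
Nfkbia: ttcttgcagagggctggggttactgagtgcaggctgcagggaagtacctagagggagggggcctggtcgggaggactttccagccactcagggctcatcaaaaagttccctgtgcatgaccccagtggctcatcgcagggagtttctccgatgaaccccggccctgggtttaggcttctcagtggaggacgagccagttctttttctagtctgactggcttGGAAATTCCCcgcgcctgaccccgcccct
Tnfaip3: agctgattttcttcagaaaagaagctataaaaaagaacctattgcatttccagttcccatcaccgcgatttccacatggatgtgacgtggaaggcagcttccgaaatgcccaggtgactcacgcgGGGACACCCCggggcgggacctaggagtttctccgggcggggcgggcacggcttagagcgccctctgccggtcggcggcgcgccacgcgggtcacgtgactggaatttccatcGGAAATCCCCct
Nfkb2: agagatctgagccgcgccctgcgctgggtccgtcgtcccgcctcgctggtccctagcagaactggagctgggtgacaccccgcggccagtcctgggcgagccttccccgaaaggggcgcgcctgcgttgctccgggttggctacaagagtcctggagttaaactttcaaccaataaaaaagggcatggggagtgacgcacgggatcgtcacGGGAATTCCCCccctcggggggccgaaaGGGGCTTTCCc
Rel: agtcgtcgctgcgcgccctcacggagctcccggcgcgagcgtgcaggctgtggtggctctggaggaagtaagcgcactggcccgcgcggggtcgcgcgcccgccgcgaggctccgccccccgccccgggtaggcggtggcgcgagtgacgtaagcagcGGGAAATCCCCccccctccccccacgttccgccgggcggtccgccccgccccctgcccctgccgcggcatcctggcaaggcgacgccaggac
In Nfkbia the match GGAAATTCCC began 29 bases before the start, and in Tnfaip3 the match GGAAATCCCC began 12 bases before it. These matched on the strand opposite to the gene, where they read GGGAATTTCC and GGGGATTTCC. Tnfaip3 also held GGGACACCCC at 125 bases. Nfkb2 held GGGAATTCCC at 39 bases and GGGGCTTTCC at 11 bases, and Rel held GGGAAATCCC at 92 bases. A match describes the letters of these windows and does not show that a factor bound there.

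Levels below are the deposited normalised signal. Each value was a whole number of reads times a factor of its library, and 1 read was worth 0.554 to 1.04 units of signal. Libraries held 7477544 to 11169003 reads in genes. The 10 genes had 8 reads at the least (Rel in kidney CD4+ replicate 2) and 9808 at the most (Nfkbia in spleen CD4+ replicate 1). Cd4 and Cd8a followed the cell type labels in every library. Cd44 ran from 181.8 in spleen CD8+ replicate 1 to 1563 in kidney CD4+ replicate 1. It was lower in CD8+ than in CD4+ libraries of each organ. Other T cell markers differed between kidney CD4+ replicates 1 and 2. Cd3e was at 5456 and 636.8 and Lck at 24570 and 2813, but Cd3d was at 10080 and 26730 and Cd3g at 24540 and 48410. Replicates of kidney CD4+ cells stood furthest apart. The SD of the log2 differences between replicates over 10845 genes was 1.47 in kidney CD8+, 1.90 in kidney CD4+, 0.848 in spleen CD8+ and 0.976 in spleen CD4+ cells. Markers of other cells also moved with the organ. The summed level of 12 proximal tubule markers was 7868 to 30330 in kidney libraries and 0 to 8.87 in spleen libraries, where Slc34a1 and Miox were at 0. For 10 neutrophil markers the sum was 0.849 to 29.6 in kidney libraries, where S100a9 and Elane were at 0, and 3673 to 9382 in spleen libraries. For 7 erythroid markers it was 12.7 to 254.9 in kidney, with Alas2 at 0, and 9183 to 16840 in spleen libraries. The sums of antigen-presenting cell markers were highest in kidney CD4+ cells, and were lower in CD8+ than in CD4+ libraries of the same organ. Not every marker followed its sum. Itgax was at 13.6 and 57.8 in kidney CD8+ and 3.52 and 14.6 in kidney CD4+ libraries. Cd68 was at 258 and 484.9 in kidney CD4+ and 559 and 518.5 in spleen CD4+ libraries. H2-Aa, H2-Ab1, H2-Eb1 and Cd74 made up most of each dendritic cell sum. The 8 dendritic cell markers in the table summed to 3655 and 5815 in kidney CD8+, 14900 and 26400 in kidney CD4+, 2318 and 2852 in spleen CD8+ and 4636 and 5664 in spleen CD4+ libraries, with Siglech at 0 in 7 of them. The 12 macrophage markers summed to 1826 and 2417 in kidney CD8+, 6555 and 6983 in kidney CD4+, 852.5 and 1460 in spleen CD8+ and 1699 and 2297 in spleen CD4+ libraries, with Marco at 0 in 6 of them. All these cells can transcribe NF-kappaB genes, and the part of their RNA in the values below was not tested.

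All 10 genes were transcribed in all 4 groups, and no gene of the 10 passed the test in any comparison. Kidney was set against spleen within CD8+ cells and within CD4+ cells, CD8+ against CD4+ cells within each organ, and the organ difference of CD8+ cells against that of CD4+ cells. The test was limma on log2(level + 1) over the 10845 genes that reached a level of 10 in 2 libraries or more, all 10 genes among them, and a gene was called at a Benjamini-Hochberg adjusted p below 0.05. Over all genes tested, the share called was 1.55% between kidney and spleen in CD8+ cells, 0.959% in CD4+ cells, 0.203% between CD8+ and CD4+ cells in kidney and 0.36% in spleen. For the difference between the organ effects it was 0% (12 genes by DESeq2, 0 by edgeR). A count of 0 of 10 is therefore close to the background in each comparison. On the recovered reads edgeR also called 0 of 10 in every comparison, and DESeq2 called 1, Nfkbia between CD8+ and CD4+ cells in kidney. At an unadjusted p below 0.05 the counts were 2, 2, 2, 2 and 0 of the 10 genes in these 5 comparisons, against 10.6%, 9.11%, 8.51%, 6.43% and 3.34% of all genes. Differences are given as log2 fold changes with their standard error (SE), and 95% intervals show which sizes remain possible where the test was missed.

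Per kilobase of exon, Nfkbia was the most abundant of the 10 in 7 of the 8 libraries. Its mean over the libraries was 1478 per kilobase, above 96.0% of the 9846 genes with a length. Tnfaip3 followed at 252 per kilobase and Rela at 220 per kilobase, above 86.2% and 85.1% of genes. Nfkb1 stood at 67.0, Nfkbid at 47.7 and Nfkbiz at 33.9 per kilobase. Nfkb2, Bcl3, Rel and Relb lay close together, between 14.3 and 15.4 per kilobase, the mean of Rel being 8.67 without kidney CD4+ replicate 1. Among the subunits, Rela and Nfkb1 were thus the most abundant per kilobase, and both subunits of the alternative route, Nfkb2 and Relb, were among the 4 lowest of the 10.

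The mixture differed between libraries mainly through Nfkbia and Tnfaip3. Nfkbia made up 32.7% and 43.1% of the summed level per kilobase of the 10 genes in kidney CD8+ cells, 69.7% and 65.1% in kidney CD4+ cells, 53.1% and 78.6% in spleen CD8+ cells, and 81.3% and 67.9% in spleen CD4+ cells. The kidney CD8+ libraries had the lowest Nfkbia shares of the 8. Tnfaip3 made up 35.3% and 22.4% in kidney CD8+ cells, 10.1% and 15.3% in kidney CD4+ cells, 16.5% and 6.08% in spleen CD8+ cells, and 6.13% and 10.8% in spleen CD4+ cells. Its shares were highest in both kidney CD8+ libraries, and in the first of them Tnfaip3 exceeded Nfkbia. Shares add up to a fixed total, so a lower Nfkbia alone raises the share of every other gene. The level of Tnfaip3 itself was 2393 and 1658 in kidney CD8+ and 2635 and 2092 in kidney CD4+ libraries. In spleen it was 1352 and 1120 in CD8+ and 1878 and 1446 in CD4+ libraries. These shares were looked at after the values were seen and carry no test.

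**Figure D1:**
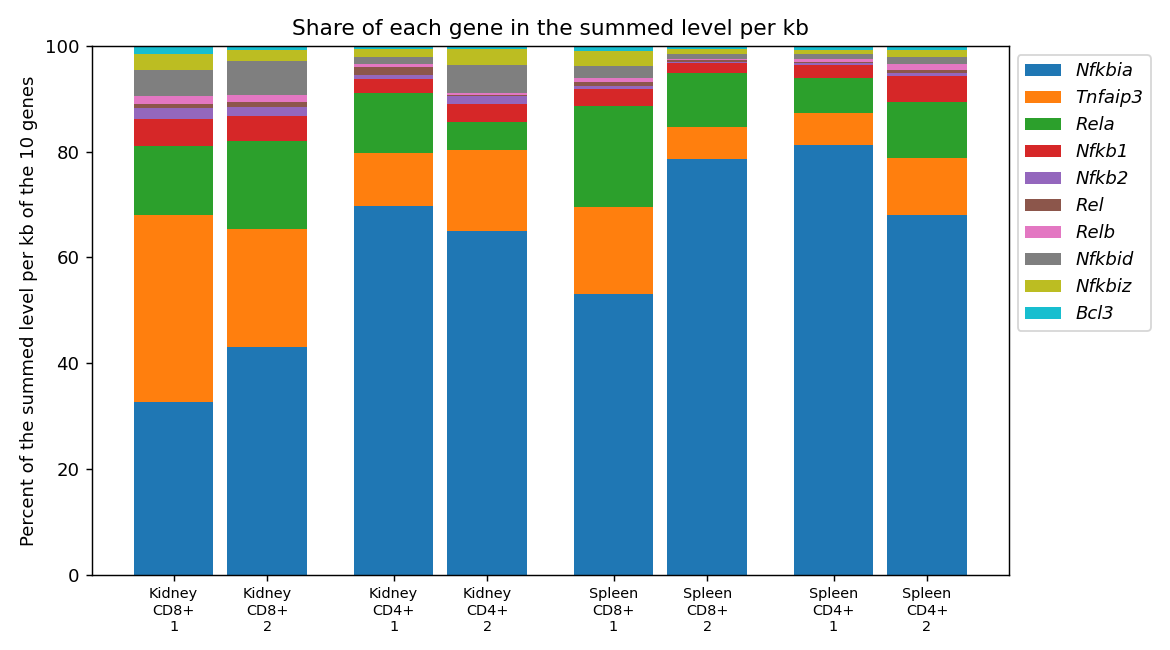
Share of each gene in the summed level per kilobase of the 10 genes (y axis, percent), one stacked bar per library (x axis, group and replicate number). Nfkbia, the lowest block, takes 32.7% and 43.1% in kidney CD8+ libraries and 53.1% or more in the other 6.

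Nfkb1 encodes p105, the precursor of the p50 subunit, and lies at chr3:135247619-135354511 on the minus strand (mm9, as for all gene positions here). Its level was 226 and 232 in kidney CD8+ cells, 464 and 308 in kidney CD4+ cells, 176 and 238 in spleen CD8+ cells, and 481 and 445 in spleen CD4+ cells. All 4 CD8+ libraries lay below all 4 CD4+ libraries, as was so for 3.61% of all genes tested (2.2% were the other way round), and the organs overlapped within each cell type. In spleen the CD8+ to CD4+ difference was -1.17 ± 0.38 on the log2 scale (95% interval -2.04 to -0.31, limma adjusted p = 0.423). In kidney it was -0.72 ± 0.38 (limma adjusted p = 0.673), and the interval of -1.59 to 0.14 includes 0. The spleen difference was called without the kidney CD4+ group in the fit (limma adjusted p = 0.0402), which leaves the difference as it is and narrows the SE to 0.24.

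Nfkb2 encodes p100, the precursor of p52 in the alternative route (chr19:46379227-46386580, plus strand). Its level was 63.7 and 53.2 in kidney CD8+ cells, 78.2 and 88.5 in kidney CD4+ cells, 22.2 and 17.2 in spleen CD8+ cells, and 55.4 and 26.7 in spleen CD4+ cells. Kidney libraries lay above spleen libraries of the same cell type in both cell types, and CD8+ libraries lay below CD4+ libraries of the same organ in both organs. The kidney to spleen difference was 1.53 ± 0.59 in CD8+ cells (95% interval 0.18 to 2.87, limma adjusted p = 0.384). In CD4+ cells it was 1.09 ± 0.59 (95% interval -0.25 to 2.43, limma adjusted p = 0.667). An exon of Nfkb2 overlaps an exon of Psd on the opposite strand, and the library kit kept no strand, so reads of the overlap cannot be assigned. Psd itself was listed at 1.04 to 6.94 in the 8 libraries.

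Rel encodes c-Rel, the subunit of lymphocytes that is induced by antigen receptor signals (chr11:23641514-23670970, minus strand). Its level was 22.9 and 29.3 in kidney CD8+ cells, 154 and 8.32 in kidney CD4+ cells, 25.6 and 16.2 in spleen CD8+ cells, and 32.1 and 35.4 in spleen CD4+ cells. The kidney CD4+ replicates held both the highest and the lowest value of the 8, 18.5-fold apart, on 218 and 8 reads. Spleen CD8+ libraries lay below spleen CD4+ libraries, and every other pair of groups within an organ or a cell type overlapped. The SE of each Rel difference was 1.16, so the 95% interval of the organ difference in CD4+ cells, -2.52 to 2.78, leaves differences of several-fold possible either way. Without kidney CD4+ replicate 1 that difference was -1.90, and without replicate 2 it was 2.16.

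Rela encodes RelA (p65), the main activating subunit of the classical route (chr19:5637483-5648130, plus strand). Its level was 334 and 463 in kidney CD8+ cells, 1122 and 274 in kidney CD4+ cells, 585 and 706 in spleen CD8+ cells, and 761 and 538 in spleen CD4+ cells. Both kidney CD8+ libraries lay below both spleen CD8+ libraries. The kidney CD4+ replicates again spanned the whole range, 4.10-fold apart. The organ difference was -0.71 ± 0.61 in CD8+ cells (95% interval -2.10 to 0.69, limma adjusted p = 0.767) and -0.21 ± 0.61 in CD4+ cells (limma adjusted p = 0.956). Calls for Rela appeared when 1 kidney CD4+ library was left out and depended on which. Without replicate 1 the organ difference in CD4+ cells was -1.22 (limma adjusted p = 0.0234), and without replicate 2 it was 0.81. Without replicate 2 the CD8+ to CD4+ difference in kidney was -1.51 (limma adjusted p = 0.0193), and without replicate 1 it was 0.52.

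Relb encodes RelB, the partner of p52 (chr7:20191566-20214787, minus strand). Its level was 52.6 and 55.5 in kidney CD8+ cells, 69.1 and 32.3 in kidney CD4+ cells, 29.6 and 35.3 in spleen CD8+ cells, and 91.4 and 78.5 in spleen CD4+ cells. Kidney libraries lay above spleen libraries in CD8+ cells and below them in CD4+ cells, an arrangement in opposite directions that 3.37% of all genes tested had. The organ difference was 0.72 ± 0.57 in CD8+ cells (limma adjusted p = 0.738) and -0.83 ± 0.57 in CD4+ cells (limma adjusted p = 0.740). The test of the difference between them gave 1.55 ± 0.80 (95% interval -0.28 to 3.38, limma adjusted p = 0.999). Within spleen, CD8+ libraries lay below CD4+ libraries, with a difference of -1.36 ± 0.57 (95% interval -2.66 to -0.07, limma adjusted p = 0.720).

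**Figure D2:**
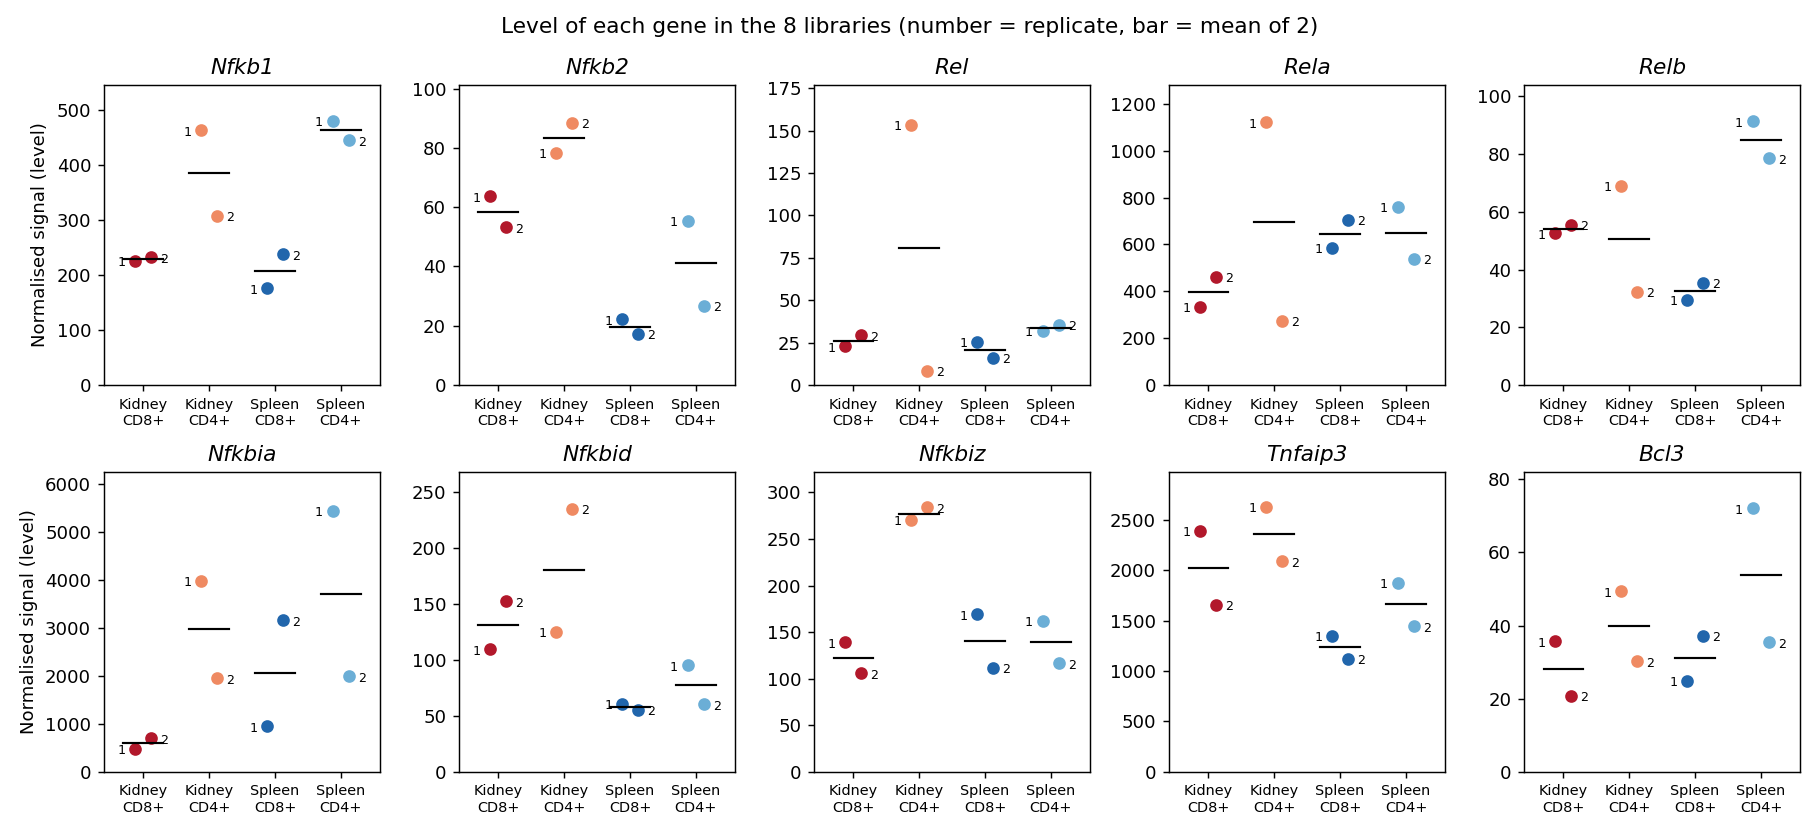
Level of each of the 10 genes (y axis, deposited normalised signal, linear from 0, a scale per panel) in the 4 groups (x axis), with a point per library numbered by replicate and a bar at the mean of 2. Nfkbid in kidney, at 109 to 235, lies above spleen, at 55.4 to 95.3, and the kidney CD4+ points of Rel (154 and 8.32) and Rela (1122 and 274) are far apart.

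Nfkbia encodes IkappaB alpha, which holds RelA dimers in the cytoplasm and is resynthesised when they are active (chr12:56590398-56593634, minus strand). Its level was 485 and 697 in kidney CD8+ cells, 3984 and 1945 in kidney CD4+ cells, 951 and 3158 in spleen CD8+ cells, and 5436 and 1989 in spleen CD4+ cells. Both kidney CD8+ libraries lay below the other 6 libraries, and all other groups overlapped. In kidney the CD8+ to CD4+ difference was -2.26 ± 0.69, a 4.78-fold lower level (95% interval -3.83 to -0.69, limma adjusted p = 0.378). The kidney to spleen difference in CD8+ cells was -1.58 ± 0.69 (95% interval -3.14 to -0.01, limma adjusted p = 0.469). Replicates of the other groups were 2.05-fold apart in kidney CD4+, 3.32-fold in spleen CD8+ and 2.73-fold in spleen CD4+ cells. DESeq2 on the recovered reads called the difference in kidney (-2.27, DESeq2 adjusted p = 0.0282) and edgeR did not, and limma called it without kidney CD4+ replicate 2 (-2.78, limma adjusted p = 0.0400). The other alternatives tried for it made no call.

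Nfkbid encodes IkappaB-NS, a nuclear IkappaB protein that acts on p50 at target promoters (chr7:31206751-31213765, plus strand). Its level was 109 and 153 in kidney CD8+ cells, 125 and 235 in kidney CD4+ cells, 60.6 and 55.4 in spleen CD8+ cells, and 95.3 and 60.4 in spleen CD4+ cells. All 4 kidney libraries lay above all 4 spleen libraries, as was so for 5.84% of all genes tested (3.6% were the other way round). The kidney to spleen difference was 1.14 ± 0.51 in CD8+ cells (95% interval -0.02 to 2.31, limma adjusted p = 0.481) and 1.17 ± 0.51 in CD4+ cells (95% interval 0.01 to 2.33, limma adjusted p = 0.546). Without kidney CD4+ replicate 1 the difference in CD4+ cells was 1.62, and without replicate 2 it was 0.72.

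Nfkbiz encodes IkappaB-zeta, a nuclear IkappaB protein that serves as a coactivator at secondary response genes (chr16:55811488-55839012, minus strand). Its level was 139 and 106 in kidney CD8+ cells, 271 and 284 in kidney CD4+ cells, 169 and 112 in spleen CD8+ cells, and 162 and 116 in spleen CD4+ cells. Both kidney CD4+ libraries lay above the other 6, which overlapped with each other. Here the kidney CD4+ replicates were 1.05-fold apart, the closest of that group's 10 pairs. The CD8+ to CD4+ difference in kidney was -1.19 ± 0.43 (95% interval -2.16 to -0.21, limma adjusted p = 0.476), and the kidney to spleen difference in CD4+ cells was 1.01 ± 0.43 (95% interval 0.03 to 1.98, limma adjusted p = 0.522). These 2 differences share the kidney CD4+ libraries, in which the sums of dendritic cell and of macrophage markers were also highest.

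Tnfaip3 encodes A20, a ubiquitin-editing enzyme that shuts off signalling upstream of NF-kappaB (chr10:18720716-18735463, minus strand). Its level was 2393 and 1658 in kidney CD8+ cells, 2635 and 2092 in kidney CD4+ cells, 1352 and 1120.1 in spleen CD8+ cells, and 1878 and 1446 in spleen CD4+ cells. Kidney libraries lay above spleen libraries within each cell type. It was the steadiest of the 10 genes, with 2.35-fold between the lowest and the highest library. The kidney to spleen difference was 0.69 ± 0.36 in CD8+ cells (95% interval -0.12 to 1.51, limma adjusted p = 0.555) and 0.51 ± 0.36 in CD4+ cells (95% interval -0.30 to 1.33, limma adjusted p = 0.745).

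Bcl3 encodes a nuclear IkappaB-like protein that acts on p50 and p52 dimers (chr7:20393811-20408119, minus strand). Its level was 35.6 and 20.8 in kidney CD8+ cells, 49.3 and 30.2 in kidney CD4+ cells, 24.9 and 37.2 in spleen CD8+ cells, and 72.0 and 35.4 in spleen CD4+ cells. Every pair of groups compared overlapped. The 4 differences between groups were -0.15 to -0.71, each with an SE of 0.67. In the annotation the gene overlaps an exon of Gm16175 on the opposite strand, which the strandless libraries do not separate.

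**Figure D3:**
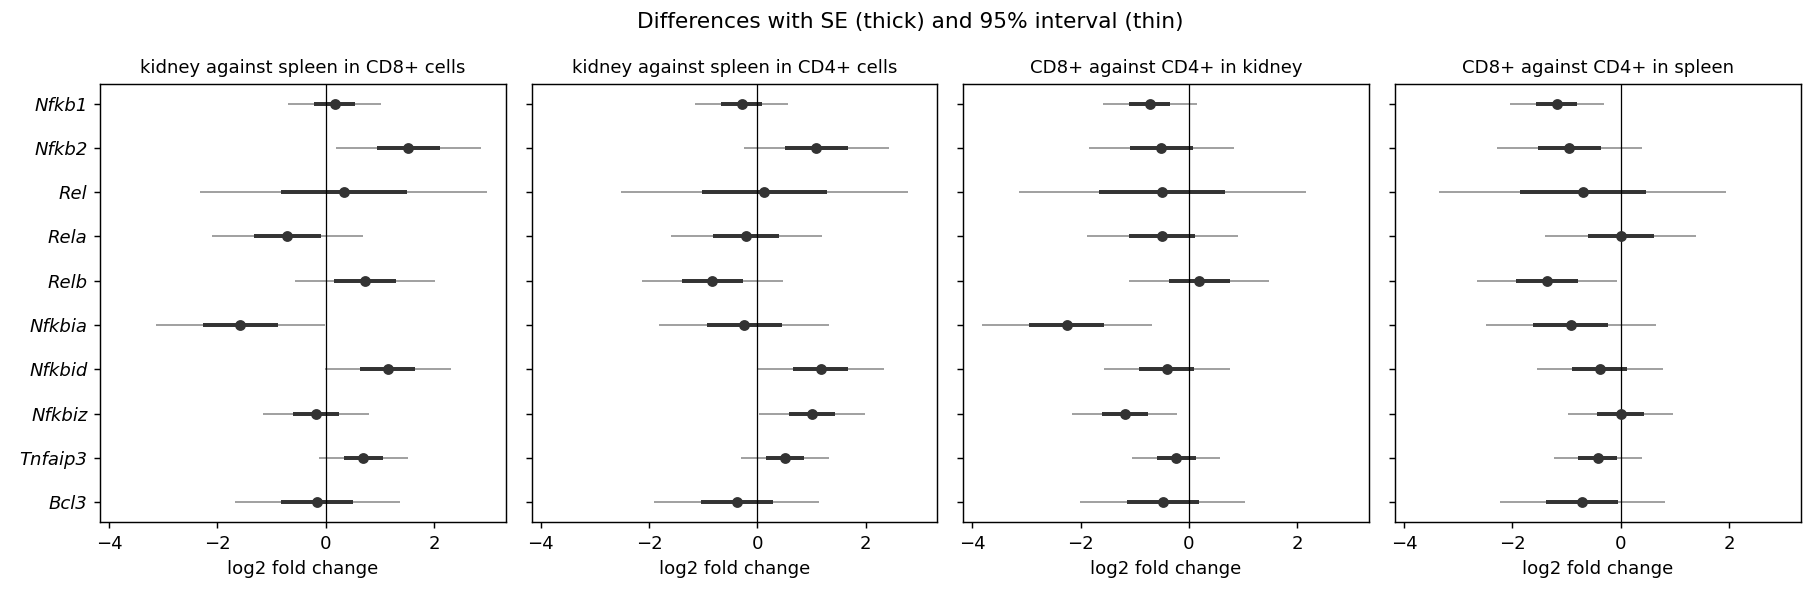
Log2 fold change of each gene (points) with its SE (thick line) and 95% interval (thin line), by gene down the page, in the 4 comparisons between groups (panels). No point was called at an adjusted p below 0.05, and the point furthest from 0 is Nfkbia for CD8+ against CD4+ in kidney at -2.26.

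Set side by side, Nfkb2, Nfkbid and Tnfaip3 were the 3 genes whose kidney libraries lay above the spleen libraries in CD8+ cells and again in CD4+ cells, which are different libraries. Of all genes tested, 8.19% were arranged so, and 6.04% were arranged the other way in both, where the 10 genes had none. Within a cell type, 4 of 10 lay fully higher in kidney CD8+ than in spleen CD8+ libraries (26.7% of all genes) and 2 lower (24.4%). In CD4+ cells 4 lay fully higher in kidney (16.3%) and 1 lower (15.6%). The median difference of the 10 was 0.25 in CD8+ cells and -0.04 in CD4+ cells, beside 0.00 and -0.08 over all genes. In these sorted but bulk samples, fewer cells of a kind that transcribes a gene and less RNA of it per cell cannot be told apart.

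Between cell types the 10 genes leaned to one side. On the log2 scale, CD8+ cells had the lower mean in 9 of 10 genes in kidney, Relb being the exception, against 48.1% of all genes tested. In spleen they had it in 9 of 10 genes as well, Rela being the exception, against 53.4% of all genes, and in both organs in 8 of 10, against 29.7%. In spleen the log2 differences of Rela, at 0.01, and of Nfkbiz, at -0.00, were close to 0, and that of Nfkbiz turned positive with other scalings. The kidney count depended on single libraries. Without kidney CD4+ replicate 1 the kidney differences of Rel, Rela and Relb were 1.53, 0.52 and 0.73. Without replicate 2 they were -2.52, -1.51 and -0.35, and that of Nfkbid was 0.043. Without kidney CD8+ replicate 2 that of Tnfaip3 was 0.028. The median difference of the 10 was -0.50 in kidney and -0.70 in spleen, beside 0.03 and -0.05 over all genes tested. Fully separate groups, with CD8+ lower, were seen for Nfkb1, Nfkb2, Nfkbia and Nfkbiz in kidney (4 of 10, against 14.1% of all genes) and for Nfkb1, Nfkb2, Rel, Relb and Tnfaip3 in spleen (5 of 10, against 26%). Nfkb1 and Nfkb2 were in both sets, as were 5.98% of all genes, and no gene of the 10 had CD8+ fully higher, against 13.8% of all genes in kidney, 19.8% in spleen and 4.2% in both. Most antigen-presenting cell markers lay the same way. The median log2 difference between CD8+ and CD4+ cells over 10 tested macrophage markers was -2.09 in kidney and -2.29 in spleen, and over 6 tested dendritic cell markers it was -1.86 in kidney and -0.28 in spleen. Differences above 0 were seen for 2 macrophage markers in kidney and 1 in spleen. For dendritic cell markers the numbers were 1 in kidney and 2 in spleen. The part of antigen-presenting cells in the lean was not tested. The genes were not called one by one, and genes of a pathway are not independent of each other, so the count describes these 8 libraries.

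Averaging both cell types or both organs in the same fit, a comparison added after the data were seen, gave 0 of 10 called as well, against 3.37% of all genes for organ and 1.3% for cell type. At an unadjusted p below 0.05 there were 3 of 10 for organ (14.2% of all genes) and 2 of 10 for cell type (9.88%). For kidney against spleen Nfkb2 stood at 1.31 ± 0.42 (limma adjusted p = 0.185), Nfkbid at 1.16 ± 0.36 (limma adjusted p = 0.174) and Tnfaip3 at 0.60 ± 0.25 (limma adjusted p = 0.327). For CD8+ against CD4+ all 10 differences were below 0, against 51.4% of all genes, from -0.24 for Rela to -1.59 ± 0.49 for Nfkbia (limma adjusted p = 0.248). Nfkb1 followed at -0.95 ± 0.27 (limma adjusted p = 0.205), and DESeq2 called both (adjusted p = 0.0173 for Nfkb1 and 0.0254 for Nfkbia). Without kidney CD4+ replicate 1 the mean cell type differences of Rel and Rela were above 0, at 0.42 and 0.26. Without replicate 2 they were -1.61 and -0.75.

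The wider pathway was read from lists of genes by role. Of 28 adaptors and kinases that carry the signal, 0 were called by limma, edgeR or DESeq2 in any of the 5 comparisons, with 3 or fewer at an unadjusted limma p below 0.05 in each. Those with the smallest adjusted p between kidney and spleen in CD8+ cells were Ikbke, Map3k14 and Malt1. Map3k14, the kinase NIK that starts the alternative route, was at 144 and 87.9 in kidney CD8+ and 37.7 and 48.7 in spleen CD8+ cells (1.37 ± 0.55, limma adjusted p = 0.410). Malt1, the protease of the antigen receptor signal, was at 236 and 147 in kidney CD8+ and 102 and 83.1 in spleen CD8+ cells (1.01 ± 0.43, limma adjusted p = 0.460). Ikbke, a kinase related to the IkappaB kinases, was at 30.6 and 65.5 in kidney CD8+ and 159.6 and 177 in spleen CD8+ cells (-1.88 ± 0.69, limma adjusted p = 0.357). Of 19 other inhibitors tested, 0 were called by limma, edgeR or DESeq2 in any of the 5, with 1 or 0 at an unadjusted limma p below 0.05 in each. Both lists did hold called genes in some limma fits without 1 kidney CD4+ library, as did the lists below.

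The list of receptors did include called genes. Of 16 tested, 3 rose in kidney CD8+ over spleen CD8+ cells and 0 fell, while 1.55% of all genes were called there. In CD4+ cells limma and edgeR called 0 between the organs and DESeq2 called 1, with 3 at an unadjusted limma p below 0.05. Tnfrsf4 encodes OX40, a costimulatory receptor of activated T cells. Its level was 321 and 244 in kidney CD8+, 17913 and 22169 in kidney CD4+, 62.6 and 81.2 in spleen CD8+, and 9376 and 10354 in spleen CD4+ cells. CD4+ libraries stood far above CD8+ libraries in both organs, and kidney above spleen within each cell type. It rose 3.88-fold in kidney CD8+ cells over spleen CD8+ cells (1.96 ± 0.34, limma adjusted p = 0.0307). The CD8+ to CD4+ difference was -6.15 ± 0.34 in kidney (limma adjusted p = 0.000243) and -7.09 ± 0.34 in spleen (limma adjusted p = 7.44e-05). Tnfrsf1b, the type 2 receptor for tumour necrosis factor, was at 1116 and 906 in kidney CD8+ and 214 and 174 in spleen CD8+ cells (2.38 ± 0.44, limma adjusted p = 0.0405). Icos, a costimulatory receptor of the CD28 family, was at 2183 and 2843 in kidney CD8+ and 476 and 586 in spleen CD8+ cells (2.24 ± 0.42, limma adjusted p = 0.0395). Icos was also lower in spleen CD8+ than in spleen CD4+ cells (-2.63 ± 0.42, limma adjusted p = 0.0489). Both calls of Tnfrsf4 that involve kidney were lost in a fit of the 4 compared libraries alone. The calls for Icos and the organ call for Tnfrsf4 were lost with the replicate number as a block. All 3 organ calls and the cell type call of Icos were lost with edgeR and with any 1 library of kidney CD8+, spleen CD8+ or spleen CD4+ cells left out, that of Icos also with no filter on low levels. In CD4+ cells the receptors called between organs numbered 6 without kidney CD4+ replicate 1 and 3 without replicate 2. Between cell types they numbered 4 and 6 in kidney and 6 and 6 in spleen without these libraries, against 1 and 2 as reported.

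Among 33 tested target genes of NF-kappaB, 2 rose and 0 fell in kidney CD8+ over spleen CD8+ cells, where 1.55% of all genes were called. Ccl3, a chemokine, was at 19170.2 and 11627 in kidney CD8+ and 2951 and 2051 in spleen CD8+ cells (2.60 ± 0.50, limma adjusted p = 0.0453). Csf2, which encodes the cytokine GM-CSF, was at 80.6 and 123 in kidney CD8+, 74.7 and 74.9 in kidney CD4+, 6.06 and 2.86 in spleen CD8+, and 1.66 and 0 in spleen CD4+ cells. It was called in both cell types (limma adjusted p = 0.0459 in CD8+ and 0.0205 in CD4+ cells), the 1 call of the list in CD4+ cells, on 9 and 3 reads in spleen CD8+ and 3 and 0 reads in spleen CD4+ cells. Lta, which encodes lymphotoxin alpha, was lower in spleen CD8+ cells, at 99.7 and 97.4, than in spleen CD4+ cells, at 573 and 607 (-2.57 ± 0.36, limma adjusted p = 0.0301), the 1 target called between cell types within an organ by limma. Averaged over both organs, Lta, Il2, Il2ra and Cd83 fell and Ier3 rose in CD8+ against CD4+ cells, calls that were each lost without any 1 of the 4 spleen libraries. The calls of Ccl3, Csf2 in CD8+ cells and Lta within spleen were each lost with the replicate number as a block and without any 1 of the kidney CD8+, spleen CD8+ or spleen CD4+ libraries. Those of Ccl3 and Csf2 in CD8+ cells were also lost with edgeR and with no filter on low levels, and that of Ccl3 with median-of-ratios rescaling. That of Csf2 in CD4+ cells was lost with library weights and without any 1 of the 4 spleen libraries, and both calls of Csf2 with the 4 compared libraries alone. Averaged over both cell types, Csf2, Tnf and Ccl3 rose in kidney (3 of 33, against 3.37% of all genes called either way). The averaged call of Csf2 (4.90, limma adjusted p = 0.00287) was lost in 0 of 15 alternatives, that of Tnf in 8 and that of Ccl3 in 6. The number of targets called depended on the kidney CD4+ libraries. Without replicate 1 it was 12 between organs in CD8+ cells, 14 in CD4+ cells, 9 for CD8+ against CD4+ cells in kidney and 8 in spleen, and without replicate 2 it was 12, 2, 12 and 8.

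Of 30 early response genes, which many stimuli and also cell handling induce, 3 rose in kidney CD8+ over spleen CD8+ cells and 0 fell. Of all genes tested, 1.55% were called in that comparison. In CD4+ cells limma and edgeR called 0 and DESeq2 called 5, with 9 at an unadjusted limma p below 0.05. Nr4a3, a nuclear receptor induced by antigen receptor signals, was at 473 and 442 in kidney CD8+ and 22.2 and 3.82 in spleen CD8+ cells (5.44 ± 0.74, limma adjusted p = 0.0130). Its relative Nr4a2 was at 424 and 411 in kidney CD8+ and 36.4 and 41.1 in spleen CD8+ cells (3.40 ± 0.48, limma adjusted p = 0.0136). Fosl2, a member of the AP-1 family, was at 324 and 284 in kidney CD8+ and 30.3 and 28.6 in spleen CD8+ cells (3.32 ± 0.51, limma adjusted p = 0.0189). In the same libraries the differences of the 10 NF-kappaB genes ran from -1.58 for Nfkbia to 1.53 for Nfkb2. The calls of Nr4a2 and Fosl2 were lost without any 1 kidney CD8+ or spleen CD8+ library, and that of Nr4a3 without either kidney CD8+ library, without spleen CD8+ replicate 2 or with the 4 compared libraries alone. Averaged over both cell types, limma called 5 of the 30 higher in kidney, against 3.37% of all genes called either way. These were Nr4a2 (2.90), Nr4a3 (4.25), Fosl2 (2.85), Dusp2 (1.81) and Hspa1b (4.92). The first 3 of these calls were lost in 0 of 15 alternatives, that of Dusp2 in 4 and that of Hspa1b in 7. Without kidney CD4+ replicate 1 the early response genes called numbered 10 between organs in CD8+ cells, 12 in CD4+ cells, 6 for CD8+ against CD4+ cells in kidney and 1 in spleen, and without replicate 2 they numbered 9, 3, 4 and 1. Whether dissociation of the kidney contributed to them was not tested. The share of genes called in a list was not compared with chance.

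**Figure D4:**
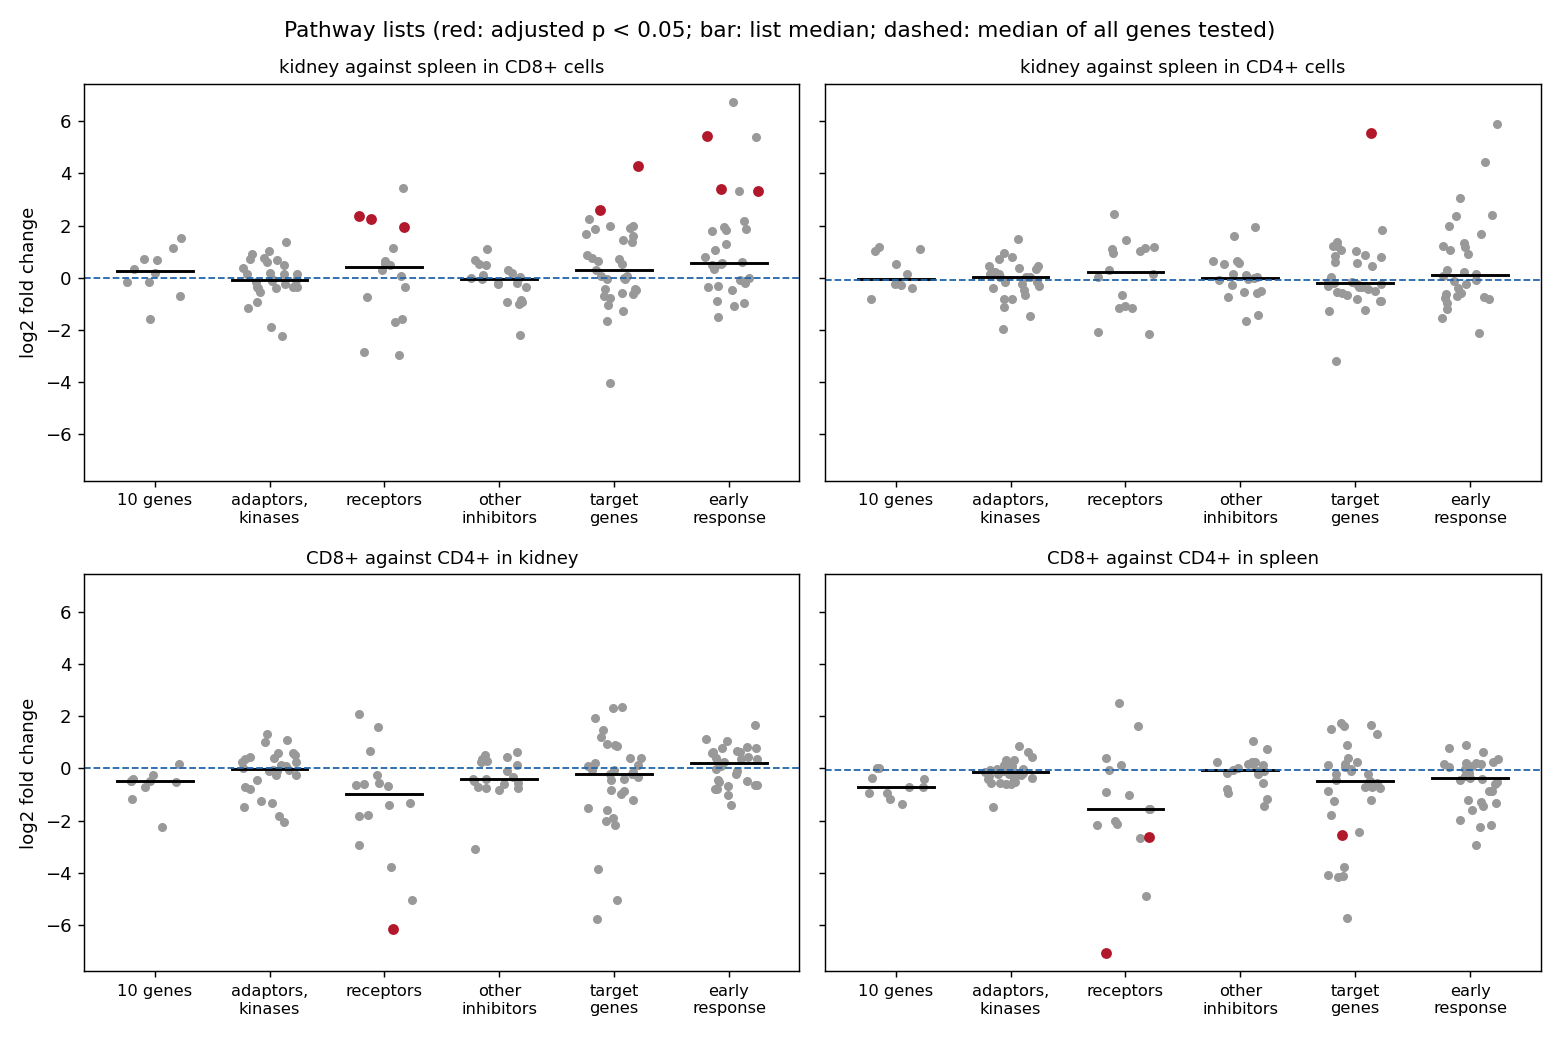
Log2 fold change (y axis) of the genes of 6 lists (x axis) in the 4 comparisons between groups (panels), a grey point per gene, a red point per called gene, a bar at the list median and a dashed line at the median of all genes tested. The 10 genes hold no red point, and red points lie among receptors, target genes and early response genes; the red point of Csf2 in CD4+ cells rests on 3 reads in spleen.

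The genes whose pattern over the 8 libraries was nearest to each of the 10 were taken by the root mean square difference of centred log2(level + 1). Rela had the closest neighbours, Anxa6 at 0.11, with Lrrfip1 and Vamp3 both at 0.13. Tnfaip3 was nearest to Zfp52 at 0.12 and Ctnnb1 at 0.12, and Nfkb1 to Nek7 at 0.15. Nfkbid was nearest to Tob2 at 0.17, Relb to Casp1 at 0.20, Bcl3 to Rbm26 at 0.21, Nfkb2 to Nudt4 at 0.22 and Rel to Calhm2 at 0.26. Nfkbia had no near neighbour, with Stk16 at 0.39 the nearest, followed by the interferon-induced genes Iigp1 at 0.42 and Parp9 at 0.44. None of the 10 was the nearest gene of another of the 10. These distances describe 8 libraries in 4 groups and carry no test.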

How the data were processed

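Total RNA had been isolated from sorted T cells on small columns, and the SMART-Seq v4 kit, made for very little RNA, turned it into strandless full-length libraries, per the labels. Reads were aligned to mm9, per the submitters' processing notes, with STAR 2.5.3 and TopHat2 2.1.0 among the tools. Bowtie is named beside STAR in the series text. The annotation and the program that counted reads are items not given in the sources used here, nor is the aligner whose output was counted. The authors deposited 1 table of normalised signal, with 13341 genes and 8 columns, of which 0 were left unused. The signal values were whole multiples of 1 step per library, so whole reads were recovered for 100% of the values (tolerance 1e-06). Libraries held 7477544 to 11169003 reads. The libraries carry no molecular identifiers, so reads may be copies of 1 molecule.

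Groups were compared with limma 3.58.1 (R 4.3.3) on log2(level + 1), with 1 mean per group, every library in the fit, a trend of variance with level, and 2-sided p-values. Moderation raised the 4 residual degrees of freedom to 8.48. This scale understates the change of low genes. Benjamini-Hochberg adjustment ran over 10845 genes within each comparison. A count test, edgeR 4.0.16 with its quasi-likelihood fit, was run on the recovered reads and called 99 genes between the organs in CD8+ cells, 66 in CD4+ cells, 24 between the cell types in kidney, 45 in spleen and 0 for the difference between organ effects. DESeq2 1.42.0 on the same reads was another alternative. Further alternatives were log2(level + 10), no filter on low levels, median-of-ratios rescaling, library weights, fits of the compared libraries alone or without the kidney CD4+ group, the replicate number as a block, and leaving out each library in turn. The main limma test was tried on simulated data first, with the same dispersion in all groups, and the alternatives were not.

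Gene positions and exon lengths came from a GENCODE annotation of mm9. Named genes were the 10 genes, the called genes of the pathway lists or else up to 3 with the smallest adjusted p per list and comparison, and the 3 genes nearest in pattern to each. Not every gene chosen by this rule is reported here. The 10 genes and the lists were chosen with earlier results of these data known. No protein sequences were used here.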

Additional observations from a re-analysis of the deposited data

Results flagged for a closer look

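Relb was the 1 gene of the 10 whose organ difference had opposite directions in the cell types in every library. Both kidney CD8+ libraries (52.6 and 55.5) lay above both spleen CD8+ libraries (29.6 and 35.3), and both kidney CD4+ libraries (69.1 and 32.3) lay below both spleen CD4+ libraries (91.4 and 78.5). The organ difference in CD8+ cells minus that in CD4+ cells was 1.55 ± 0.80 on the log2 scale, and its own test did not pass (limma, unadjusted p = 0.0872, adjusted p = 0.999). Kidney CD4+ replicates of Relb were 2.14-fold apart, and 3.37% of all genes tested had opposite directions in this sense.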

How the results depend on the processing

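No gene of the 10 passed the test as reported, and 100 of 111 recounts under the alternatives also gave 0. The exceptions were 1 gene with DESeq2 between the cell types in kidney (Nfkbia), 1 in spleen without the kidney CD4+ group and 1 with library weights (Nfkb1 both times, limma adjusted p = 0.0402 and 0.0119), and 2 with DESeq2 for the mean of both organs (Nfkb1 and Nfkbia). Leaving out 1 library in turn gave 0 to 2 genes of the 10 for the organ difference in CD4+ cells, 0 to 2 between cell types in kidney, 0 to 1 in spleen, 0 to 2 for the mean organ difference and 0 to 3 for the mean cell type difference. All such calls came without a kidney CD4+ library, and the lone library left is assumed to vary like the other groups. Over all genes, calls ranged from 21 to 745 for the organ difference in CD8+ cells (168 as reported), 0 to 2331 in CD4+ cells (104), 0 to 1351 between cell types in kidney (22), 2 to 666 in spleen (39), 0 to 745 for the difference between organ effects (0), 148 to 2749 for the mean organ difference (366) and 27 to 1312 for the mean cell type difference (141). Without 1 kidney CD4+ library the calls over all genes rose in every comparison that rests on that group or shares its fit. Higher counts for the 10 genes or for a list in such fits cannot be read as particular to them. The sign changed in 52 of 1110 values of the 10 genes. Rela between organs in CD4+ cells became 0.045 with edgeR and 0.054 with DESeq2. Nfkbiz between cell types in spleen became 0.056 with median-of-ratios rescaling, 0.076 with edgeR and 0.088 with DESeq2. Rel for the difference between organ effects became -0.089 with log2(level + 10), -0.90 with edgeR and -0.86 with DESeq2. The cause was not tested. The scaling moved the median of all genes for that difference between organ effects to 0.065 with median-of-ratios and -0.025 with TMM, against 0.11 as deposited. The following are ranges over leaving out each library, on the log2 scale, for values that changed sign. For kidney against spleen in CD4+ cells, they were Nfkb1 -0.59 to 0.0032, Rel -1.90 to 2.16, Rela -1.22 to 0.81, Nfkbia -0.97 to 0.48, Bcl3 -0.88 to 0.12, Pdlim2 -1.49 to 0.026. For kidney against spleen in CD8+ cells, they were Nfkb1 -0.055 to 0.38, Nfkbiz -0.48 to 0.12, Bcl3 -0.53 to 0.22, Tnip2 -4.43 to 0.068. For CD8+ against CD4+ in kidney, they were Rel -2.52 to 1.53, Rela -1.51 to 0.52, Relb -0.35 to 0.73, Nfkbid -0.86 to 0.043, Tnfaip3 -0.50 to 0.028. For CD8+ against CD4+ in spleen, they were Rela -0.24 to 0.26, Nfkbiz -0.30 to 0.30. For organ difference in CD8+ minus that in CD4+, they were Nfkb2 -0.075 to 0.95, Rel -1.82 to 2.23, Rela -1.52 to 0.52, Nfkbid -0.47 to 0.43, Tnfaip3 -0.080 to 0.45, Bcl3 -0.28 to 0.73. For kidney against spleen, mean of both cell types, they were Nfkb1 -0.21 to 0.083, Rel -0.78 to 1.24, Rela -0.96 to 0.051, Relb -0.32 to 0.22. For CD8+ against CD4+, mean of both organs, they were Rel -1.61 to 0.42, Rela -0.75 to 0.26, Tnip2 -2.13 to 0.12. Deviations of same-numbered libraries correlated at -0.15 to 0.06 between groups over 10845 genes. This cannot show whether same-numbered libraries came from the same mice, which the labels do not say. With the replicate number as a block, 0 of the 10 genes were called in each comparison. At these depths Rel, with as few as 8 reads in a library, is limited by counting error as well as by the spread of replicates.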
